A study of Homo sapiens with 4 samples.

Results

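The keratin, claudin, desmosome, tight junction and cornified envelope genes were followed in HCCLM3 cells with and without knockdown of KIAA1429. Members were matched by gene symbol, and the symbols were set with earlier results known. The symbols covered keratins, claudins, desmogleins, desmocollins, desmoplakin, plakoglobin, plakophilins, envoplakin, periplakin, zonula occludens proteins, OCLN, F11R, CDH1, EPCAM and the late cornified envelope genes. Of the 120 protein-coding genes of the reference annotation that the symbols matched, 33 had a row in the tables used here, out of 11665 genes with protein-coding rows. The 33 comprised 11 of 55 keratins, 7 of 24 claudins and 2 of 19 late cornified envelope genes. The other 87, among them CDH1, EPCAM, TJP3, DSC2 and PKP1, had no row in the tables and were not analysed here.

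HCCLM3 is a human hepatoma cell line. The 4 RNA-seq samples were 2 of cells infected with the lentiviral control hairpin (shCtrl) and 2 of cells with the hairpin against KIAA1429 (shKIAA1429), a stable knockdown with 1 hairpin sequence. KIAA1429, also called VIRMA, encodes a large subunit of the complex that writes m6A, a methyl mark on adenosines of RNA. Both groups shared the cell line and the lentiviral vector, and no source states that the replicates were separate cultures, so p-values measure only the spread between these samples. The level of a gene was its FPKM, the number of fragments scaled to transcript length and to all mapped fragments, summed over its protein-coding transcripts, a scale that allows genes of different length to be set side by side. Depth per sample is unknown, since the values are FPKM. Log2 fold changes are of shKIAA1429 over shCtrl on FPKM plus 1, given with their standard error (SE) from limma, a linear model fitted across all genes, and p-values are adjusted over all genes tested.

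Keratins are the intermediate filament proteins of epithelial cells, and a filament needs a type I and a type II partner. Hepatocytes make the simple pair KRT8 and KRT18, while bile duct cells add KRT7 and KRT19. Desmosomes tie these filaments to the neighbouring cell through cadherins and a plaque of plakoglobin, plakophilins and plakins, and tight junctions seal the space between cells with claudins, occludin and JAM-A on a scaffold of zonula occludens proteins. KRT10 and the late cornified envelope proteins are best known from the outer layers of the epidermis.

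The targeted gene was lower in the knockdown samples. VIRMA measured 9.02 and 14.1 FPKM in the shCtrl samples, against 5.81 and 8.52 FPKM after knockdown, which gave a log2 fold change of -0.61 (SE 0.28, limma adjusted p-value 0.897). The sum of all FPKM ranged from 370253.5 to 390224.4 over the 4 samples, and the members made up 0.732% to 0.782% of it. The liver identity of the cells could be checked on few genes. Of 14 hepatocyte and hepatoma markers only SERPINA1 had a row, between 3.34 and 5.63 FPKM, and 0 of 6 endothelial markers had one. Every listed row reached at least 0.504 FPKM in some sample, and whether markers without a row were below that level was not tested. Of 7 leukocyte markers CD68 and CD14 had rows, with a summed level of 48.4 to 56.3 FPKM in shCtrl and 46.7 to 55.5 FPKM in shKIAA1429. Of 7 fibroblast markers 6 had rows, with a summed level of 113 to 115 FPKM in shCtrl and 103 to 110 FPKM in shKIAA1429. Among them LUM, lumican, had 7.92 and 7.04 FPKM in control cells and 2.73 and 2.88 FPKM in knockdown cells (limma adjusted p 0.330). Of the 5 fibroblast markers tested, 3 had a higher mean log2 level in shKIAA1429, with log2 fold changes of 0.38 for COL1A1, 0.10 for COL3A1 and 0.05 for PDGFRB, while THY1 was at -0.34 and LUM at -1.16. In bulk RNA, fewer cells of a type and less RNA per cell cannot be told apart.

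No member passed the thresholds in either direction. Genes were tested where 2 or more samples reached 1 FPKM, a limit that 31 of the 33 members and 10781 genes met, and CLDN3 and CLDN23 did not. In limma, 0 of the 31 members had an adjusted p-value under 0.05 with an absolute log2 fold change over 1, and 0 of the 10781 genes did (0%). The smallest limma adjusted p-value over all genes was 0.244, and LCE1F, a member, had this value. The adjustment can give the same value to several genes, and LCE1F did not have the smallest unadjusted p-value of all genes. With 2 samples against 2, a two-sided exact permutation test cannot give a p-value below 0.333.

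The members as a group were balanced. Of the 31, 16 had a higher and 15 a lower mean log2 level in shKIAA1429, with a median log2 fold change of 0.0068, beside -0.0117 over all genes tested. An unadjusted p-value under 0.05 was found for 5 members that were higher in shKIAA1429 (KRT10, F11R, KRT19, KRT7 and LCE2A), against 3.11% of all genes in that direction. It was found for 1 member that was lower, LCE1F, against 2.82% of all genes. Both shKIAA1429 values lay above both shCtrl values in 7 members, where 16.6% of all genes did so. They lay below in 8 members, where 17.1% of all genes did so. An absolute log2 fold change over 1 was seen in 3 members, LCE1F, F11R and KRT10, beside 1.25% of all genes.

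**Figure D1:**
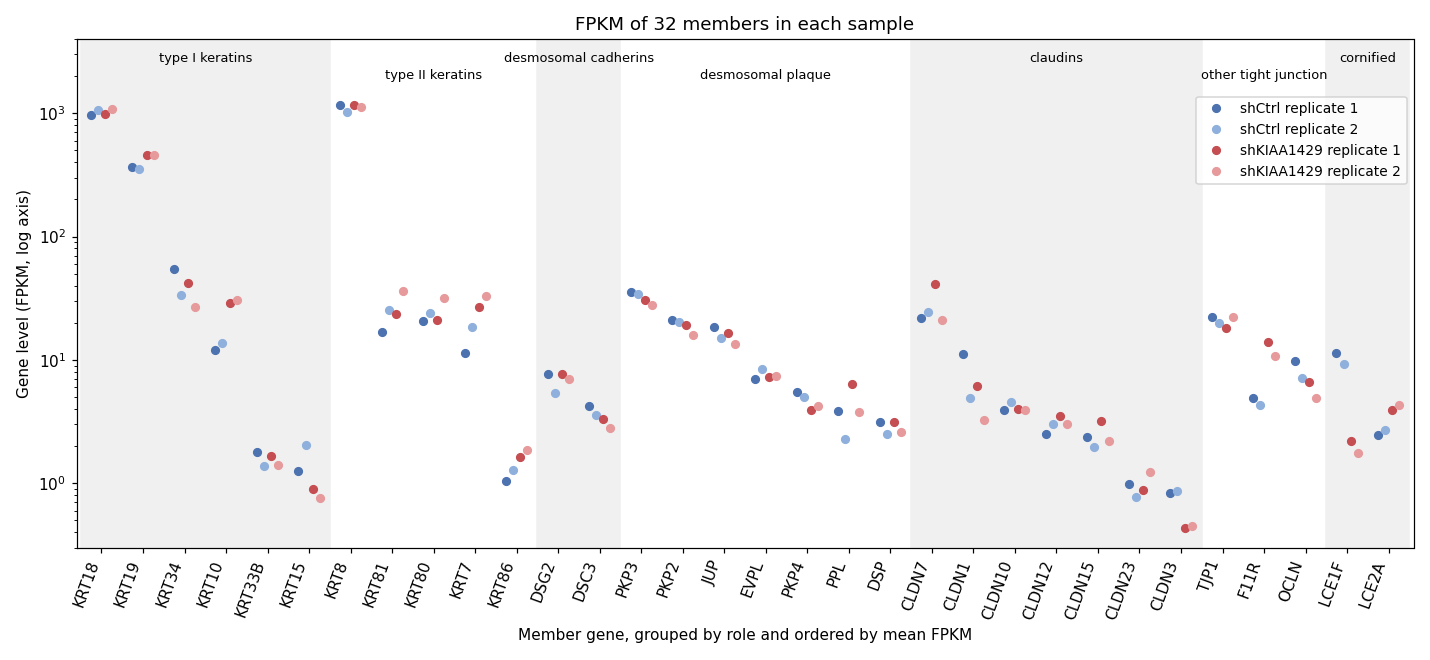
Gene level in FPKM on a log axis for 32 of the 33 members, with 1 point per sample (blue shCtrl, red shKIAA1429), grouped by role. KRT8, KRT18 and KRT19 stand above all other members, and the red and blue points of LCE1F, KRT10 and F11R do not overlap.

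Among the keratins, the most abundant RNAs were those of simple epithelia, the pair KRT8 and KRT18 and, below them, KRT19. VIM, which encodes a filament protein that is not a keratin, lay between 758.5 and 978.1 FPKM, so the cells did not express keratin filament genes alone. KRT8, the type II partner, had 1169.9 and 1014.2 FPKM in control cells compared with 1155.7 and 1128.0 FPKM in knockdown cells. KRT18, its type I partner, reached 970.7 and 1070.3 FPKM in the 2 control samples and 977.9 and 1072.6 FPKM in the 2 knockdown samples. The values of the groups overlapped for both genes, and the log2 fold changes were 0.07 (SE 0.11) for KRT8 and 0.01 (SE 0.11) for KRT18. The ratio of KRT8 to KRT18 was 1.21 and 0.948 in shCtrl and 1.18 and 1.05 in shKIAA1429, so the pair stayed near equal levels in each sample. KRT8, KRT18 and KRT19 together held 88.0% to 89.0% of the FPKM of all members. The deposited spans of KRT8 and KRT18 overlap by 1050 bases on opposite strands of chromosome 12. Whether reads were counted by strand is not given in the sources used here, so reads from that stretch cannot be told apart.

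Both keratins that mark bile duct cells were higher in shKIAA1429 without passing the adjusted test. KRT19, a type I keratin on chromosome 17 (39679869 to 39684560, minus strand), measured 364.2 and 350.1 FPKM in the shCtrl samples, against 461.3 and 457.9 FPKM after knockdown. The 2 replicates of each group were close and the groups did not overlap. By limma the log2 fold change was 0.36 (SE 0.10), the unadjusted p-value 0.0147 and the adjusted p-value 0.699. KRT7, a type II keratin on chromosome 12 (52626898 to 52642705, plus strand), had 11.4 and 18.6 FPKM in control cells compared with 26.6 and 32.98 FPKM in knockdown cells. Its groups did not overlap either, though the control samples differed from each other more than those of KRT19. By limma the log2 fold change was 0.97 (SE 0.27), the unadjusted p-value 0.0171 and the adjusted p-value 0.713. It was 0.64 on the log2 scale without shCtrl replicate 1. Among the 7 cholangiocyte and progenitor markers, SOX9, a transcription factor of bile duct cells, had a log2 fold change of 0.28 (limma adjusted p 0.931) and SPP1 of -0.16 (0.965).

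A noncoding row of the KRT7 locus differed more than the coding one. KRT7-201, the main protein-coding transcript, was at 11.4, 18.2, 26.6 and 29.5 FPKM in shCtrl replicates 1 and 2 and shKIAA1429 replicates 1 and 2. KRT7-202, labelled a processed transcript, reached 0.387 and 0.359 FPKM in the 2 control samples and 18.1 and 23.7 FPKM in the 2 knockdown samples. Being noncoding, it lay outside the sums above. With all rows summed, KRT7 measured 14.3 and 23.2 FPKM in the shCtrl samples, against 48.5 and 62.7 FPKM after knockdown. That gave a log2 fold change of 1.55 (SE 0.27, limma adjusted p-value 0.432). A plain sum of FPKM does not weigh rows by length, and KRT7-202 is short. Multiplied by exonic kilobases, KRT7-202 came to 0.113 and 0.105 in shCtrl and to 5.29 and 6.93 in shKIAA1429. KRT7-201 came to 18.6 and 29.5 in shCtrl and to 43.2 and 47.9 in shKIAA1429 on that scale. KRT7-202 has 292 exonic bases, of which 165 are also exonic in KRT7-201, against 1625 for KRT7-201. Its first exon lies upstream of the first exon of KRT7-201 and is printed to show the bases that set the noncoding row apart, from GRCh37 chr12:52626449-52626575, plus strand.
KRT7-202 exon 1: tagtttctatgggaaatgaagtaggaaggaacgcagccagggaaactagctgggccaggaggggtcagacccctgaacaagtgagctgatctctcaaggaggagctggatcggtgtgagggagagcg

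Of the 11 noncoding rows of the members' loci, 5 had both shKIAA1429 values above both shCtrl values, as did 18.9% of all 7650 noncoding rows, and 1 had them below, as did 15.7%. Of the 5, KRT7-202, KRT7-211 and F11R-203 reached 0.504 FPKM, the lowest maximum of any listed row, only in shKIAA1429 samples.

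KRT10, a type I keratin of suprabasal epidermis, was higher as a gene sum, but its transcripts went in opposite directions. The sum had 11.96 and 13.6 FPKM in control cells compared with 28.8 and 30.4 FPKM in knockdown cells, with no overlap. By limma the log2 fold change was 1.15 (SE 0.14), the unadjusted p-value 0.000583 and the adjusted p-value 0.321. KRT10-201 reached 6.53 and 7.43 FPKM in the 2 control samples and 0.0032 and 0 FPKM in the 2 knockdown samples. KRT10-202 measured 5.43 and 6.14 FPKM in the shCtrl samples, against 28.8 and 30.4 FPKM after knockdown. Thus KRT10-202 held 45.4% and 45.2% of the gene in the control samples and 99.99% and 100% of it in the knockdown samples. The limma adjusted p-value over all transcripts was 0.114 for each, with log2 fold changes of -2.99 (SE 0.19) and 2.17 (SE 0.16).

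The row of KRT10-202 covers a much shorter stretch than that of KRT10-201. The deposited span of KRT10-201 is chromosome 17, 38974369 to 38978847, minus strand, and that of KRT10-202 is 38974369 to 38975235. The reference annotation places 2124 and 583 exonic bases within these spans, while it gives the whole transcripts 2143 and 2163 exonic bases. FPKM is per kilobase, and which length stands behind the deposited values is not given in the sources used here. With each FPKM multiplied by the exonic bases within its span, in kilobases, KRT10 came to 17.03 and 19.4 in the shCtrl samples and to 16.8 and 17.7 in the shKIAA1429 samples, a ratio of means of 0.948, and the groups overlapped. In a fit of all genes on this scale the log2 fold change of KRT10 was -0.07 (SE 0.13, limma adjusted p-value 0.996). With all 867 bases of the shorter span counted, the values were 18.6 and 21.1 in shCtrl and 25.0 and 26.3 in shKIAA1429, a ratio of 1.29. With all annotated exonic bases of both transcripts counted, they were 25.7 and 29.2 in shCtrl and 62.3 and 65.7 in shKIAA1429, a ratio of 2.33. Whether the KRT10 total differed between the groups thus depended on the length taken for KRT10-202, while the exchange between its rows did not. TMEM99 overlaps KRT10 on the opposite strand by 3490 bases and had 9.09 and 8.01 FPKM in control cells compared with 10.03 and 8.43 FPKM in knockdown cells.

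The reference annotation gives both KRT10 transcripts 8 exons, and they differ at the end of exon 7. KRT10-202 holds 20 more bases there. The last 80 bases of its exon 7 are printed because they fall within the deposited span of both rows and show what sequence could tell them apart. They are from GRCh37 chr17:38975019-38975098, minus strand, and the capitals mark the bases that only KRT10-202 holds.
KRT10 exon 7 end: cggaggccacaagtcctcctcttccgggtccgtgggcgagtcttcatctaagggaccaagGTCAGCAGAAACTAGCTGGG

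**Figure D2:**
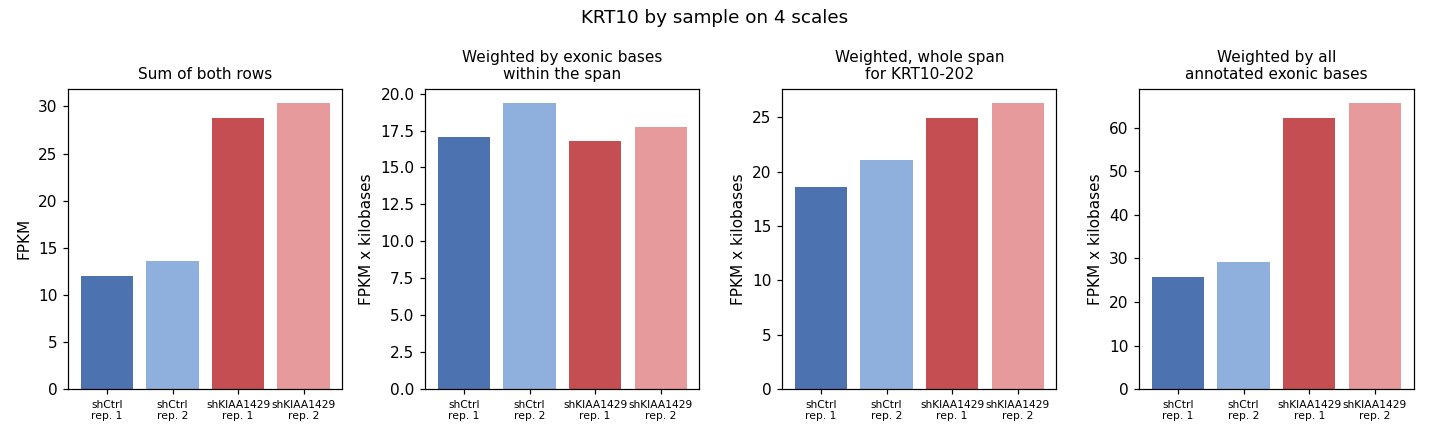
KRT10 in the 4 samples (blue shCtrl, red shKIAA1429) as the FPKM sum of both rows, as FPKM multiplied by the exonic kilobases within the span of each row, with the whole span counted for KRT10-202, and with all annotated exonic bases counted. The ratio of the group means was 0.948 on the second scale, 1.29 on the third and 2.33 on the fourth.

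The remaining keratins included several that are known from hair. KRT81, a type II hair keratin, reached 16.8 and 25.3 FPKM in the 2 control samples and 23.4 and 36.3 FPKM in the 2 knockdown samples, with a log2 fold change of 0.48 (SE 0.30) and overlapping groups. It was 0.18 without shKIAA1429 replicate 2 and 0.79 without shKIAA1429 replicate 1. KRT86, its close relative, measured 1.03 and 1.28 FPKM in the shCtrl samples, against 1.64 and 1.87 FPKM after knockdown. All of KRT81 lies within the span of KRT86 on the opposite strand, and the genes are similar in sequence, so the split between them is uncertain. KRT34, a type I hair keratin, had 54.4 and 33.5 FPKM in control cells compared with 41.6 and 27.0 FPKM in knockdown cells, the fourth most abundant keratin here. Its difference of -0.34 on the log2 scale was within the spread of the control samples. KRT80, a type II epithelial keratin, reached 20.8 and 23.9 FPKM in the 2 control samples and 21.1 and 31.5 FPKM in the 2 knockdown samples. KRT15, a basal epidermal keratin, measured 1.25 and 2.05 FPKM in the shCtrl samples, against 0.896 and 0.754 FPKM after knockdown, a log2 fold change of -0.52 (SE 0.21). Of its shCtrl replicate 2 value, 1.71 FPKM was KRT15-203, a row at 0 in the other samples. The row KRT15-201 overlapped between the groups, at 1.25 and 0.348 FPKM in shCtrl and 0.896 and 0.754 FPKM in shKIAA1429. By type, 5 of 5 type II keratins and 3 of 6 type I keratins had a higher mean log2 level in shKIAA1429, and 1 and 2 of them had an unadjusted p-value under 0.05, against 3.11% of all genes in that direction. The 3 genes are KRT7, KRT19 and KRT10, of which KRT10 depended on the length of its rows.

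**Figure D3:**
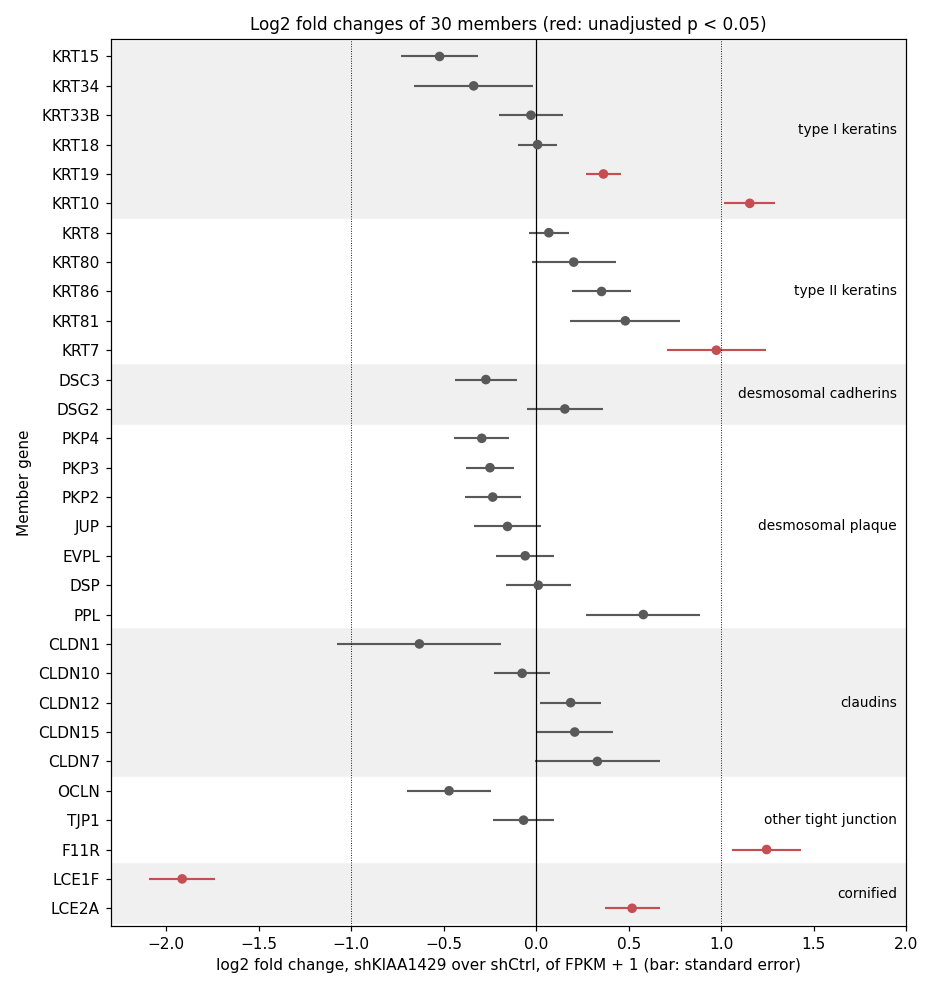
Log2 fold change of FPKM plus 1 (shKIAA1429 over shCtrl) with its standard error for 30 of the 31 members tested, grouped by role, red where the unadjusted p-value was under 0.05 and with dotted lines at an absolute value of 1. LCE1F lies at -1.91 and F11R at 1.24, while the desmosome genes lie between -0.29 and 0.58.

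The desmosome genes were expressed at moderate levels, with log2 fold changes between -0.29 and 0.58. Of the 9 genes, 2 cadherins and 7 plaque genes, 0 had an unadjusted p-value under 0.05, beside 5.93% of all genes. With 9 genes, a count of 0 does not set them apart from that share. The 3 plakophilins, which link cadherins to the plaque, were each lower in both shKIAA1429 samples than in both shCtrl samples, an order that 17.1% of all genes showed. PKP3 had 35.4 and 34.4 FPKM in control cells compared with 30.6 and 27.8 FPKM in knockdown cells, a log2 fold change of -0.25 (SE 0.13). PKP2 reached 21.2 and 20.4 FPKM in the 2 control samples and 19.2 and 15.9 FPKM in the 2 knockdown samples. PKP4 measured 5.48 and 4.96 FPKM in the shCtrl samples, against 3.92 and 4.21 FPKM after knockdown. Their limma adjusted p-values were 0.915, 0.939 and 0.912, with log2 fold changes of -0.24 for PKP2 and -0.29 for PKP4.

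The core plaque and the cadherins overlapped between the groups with 1 exception. JUP, plakoglobin, had 18.4 and 15.1 FPKM in control cells compared with 16.4 and 13.4 FPKM in knockdown cells. DSP, desmoplakin, which anchors the keratin filaments, reached 3.16 and 2.50 FPKM in the 2 control samples and 3.11 and 2.59 FPKM in the 2 knockdown samples. DSG2, the desmoglein of simple epithelia, measured 7.75 and 5.41 FPKM in the shCtrl samples, against 7.70 and 6.98 FPKM after knockdown. None of these 3 genes differed by more than its replicates did. DSC3, a desmocollin of stratified epithelia, was the exception, with 4.26 and 3.56 FPKM in control cells compared with 3.32 and 2.81 FPKM in knockdown cells, a log2 fold change of -0.27 (SE 0.17). The plakins EVPL and PPL, which are parts of the cornified envelope as well, had log2 fold changes of -0.06 (SE 0.16) and 0.58 (SE 0.31). That of PPL was 0.27 without shKIAA1429 replicate 1 and 0.89 without shKIAA1429 replicate 2.

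F11R was the tight junction gene that stood out. It encodes JAM-A, an adhesion molecule of tight junctions, and lies on chromosome 1 (160965001 to 160991138, minus strand). It had 4.95 and 4.29 FPKM in control cells compared with 14.0 and 10.8 FPKM in knockdown cells. The lower of the knockdown values was well above the higher of the control values. By limma the log2 fold change was 1.24 (SE 0.18), the unadjusted p-value 0.00145 and the adjusted p-value 0.3504. Most of the sum was F11R-202, with 4.95 and 4.29 FPKM in control cells compared with 14.0 and 8.97 FPKM in knockdown cells. F11R-204 was listed at 0 in 3 samples and was at 1.83 FPKM in shKIAA1429 replicate 2. On the length-weighted scale the log2 fold change of F11R was 1.16 (SE 0.22).

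OCLN was lower and TJP1 overlapped. OCLN, occludin, reached 9.73 and 7.07 FPKM in the 2 control samples and 6.66 and 4.88 FPKM in the 2 knockdown samples, a log2 fold change of -0.47 (SE 0.23). Leaving out shCtrl replicate 1 gave -0.27 for OCLN, and leaving out the other control sample gave -0.68. TJP1, which encodes ZO-1, had 22.2 and 20.1 FPKM in control cells compared with 18.0 and 22.3 FPKM in knockdown cells, with overlapping groups. Within TJP1, TJP1-201 was at 7.16, 5.36, 3.99 and 1.79 FPKM in the order of samples used above, and TJP1-212 was at 5.13, 4.86, 5.15 and 16.9 FPKM. The high TJP1-212 value came from a single knockdown sample.

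Claudins, the sealing proteins of tight junctions, gave 0 of 5 tested genes with an unadjusted p-value under 0.05, beside 5.93% of all genes. With 5 genes, a count of 0 does not set the claudins apart from that share. CLDN7 reached 22.0 and 24.5 FPKM in the 2 control samples and 41.2 and 20.9 FPKM in the 2 knockdown samples, so its difference rested on shKIAA1429 replicate 1. The log2 fold change of CLDN7 was 0.33 (SE 0.34) with all samples and -0.14 without that sample. CLDN1 measured 11.3 and 4.91 FPKM in the shCtrl samples, against 6.09 and 3.26 FPKM after knockdown. Its log2 fold change was -0.63 (SE 0.44) with all samples and -0.10 without shCtrl replicate 1. CLDN10, CLDN12 and CLDN15 lay between 1.97 and 4.52 FPKM in every sample, with log2 fold changes of -0.08, 0.19 and 0.21. CLDN12 was the 1 claudin tested whose groups did not overlap, with 2.51 and 3.01 FPKM in control cells and 3.53 and 3.02 FPKM in knockdown cells, where 16.6% of all genes lay higher in this way. CLDN3 was below 1 FPKM in all 4 samples, at 0.827 and 0.857 in shCtrl and at 0.438 and 0.454 in shKIAA1429, and was not tested. Both knockdown values of CLDN3 were below both control values.

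The late cornified envelope genes, small proteins of the epidermal barrier encoded in a cluster on chromosome 1, gave the lowest p-value of all members. That gene, LCE1F, was on the list of named genes because of its value in an earlier analysis, so its p-value here is not independent support. LCE1F (152748848 to 152749204, plus strand) had 11.3 and 9.23 FPKM in control cells compared with 2.19 and 1.77 FPKM in knockdown cells. Both knockdown values were far below both control values, 5.17-fold lower in the means, with a log2 fold change of -1.91 (SE 0.18), a limma p-value of 0.000181 and an adjusted p-value of 0.244. It ranged from -2.05 to -1.78 when each replicate was left out. The LCE1F row holds 357 exonic bases, while the annotated transcript has 2 exons from 152747616 to 152749500. Multiplied by exonic kilobases, its FPKM came to 4.03 and 3.29 in shCtrl and to 0.781 and 0.634 in shKIAA1429. How many fragments lie behind these values is unknown. LCE2A (152670840 to 152671918, plus strand) reached 2.46 and 2.69 FPKM in the 2 control samples and 3.96 and 4.27 FPKM in the 2 knockdown samples. It differed in the opposite direction, with a log2 fold change of 0.52 (SE 0.15), a limma p-value of 0.0196 and an adjusted p-value of 0.734. FLG, filaggrin, another gene of the epidermal barrier, measured 28.7 and 18.97 FPKM in the shCtrl samples, against 14.8 and 17.9 FPKM after knockdown, with a limma adjusted p-value of 0.912.

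LCE1F shares much of its sequence with other genes of the cluster. Over the coding sequence the identity to LCE1F was 92.09% for LCE1C and for LCE1E and 70.83% for LCE2A. No LCE1 gene other than LCE1F had a row, so the assignment of fragments among these near copies is uncertain. The first 120 coding bases of LCE1F, LCE1E and LCE2A are printed to show how alike the copies are, from the reference annotation on GRCh37, with capitals for bases that differ from LCE1F at the same position without gaps. LCE1E differed at 7 and LCE2A at 36 of these positions.
LCE1F: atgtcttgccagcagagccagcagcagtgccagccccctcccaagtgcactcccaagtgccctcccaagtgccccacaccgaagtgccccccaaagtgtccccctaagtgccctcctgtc
LCE1E: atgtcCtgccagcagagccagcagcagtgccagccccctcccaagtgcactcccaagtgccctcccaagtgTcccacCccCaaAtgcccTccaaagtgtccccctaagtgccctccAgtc
LCE2A: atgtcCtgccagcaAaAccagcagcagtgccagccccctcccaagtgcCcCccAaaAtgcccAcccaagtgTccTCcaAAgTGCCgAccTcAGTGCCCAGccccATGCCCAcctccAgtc

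Single transcripts were tested as well, since the gene sums hide exchanges between them. The members had 80 protein-coding transcript rows, of which 58 were tested among 24996 transcripts, and 0 passed the thresholds, beside 0% of all transcripts. An unadjusted p-value under 0.05 was found for 4 member transcripts that were higher in shKIAA1429, against 3.1% of all transcripts, and for 3 that were lower, against 3.18%. PKP3-211 was among the lower ones, with 1.72 and 2.62 FPKM in control cells compared with 0.156 and 0.143 FPKM in knockdown cells, which gave a log2 fold change of -1.45 (SE 0.23, limma adjusted p-value 0.310). The main transcript PKP3-201 had 25.3 and 23.8 FPKM in control cells compared with 21.7 and 21.6 FPKM in knockdown cells. KRT8 exchanged rows between replicates of the same group: KRT8-201 was at 20.4 and 197.1 FPKM in shCtrl, while KRT8-215 was at 1076.8 and 727.3 FPKM in the same samples. These 2 rows differed more between the control replicates than between the groups.

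**Figure D4:**
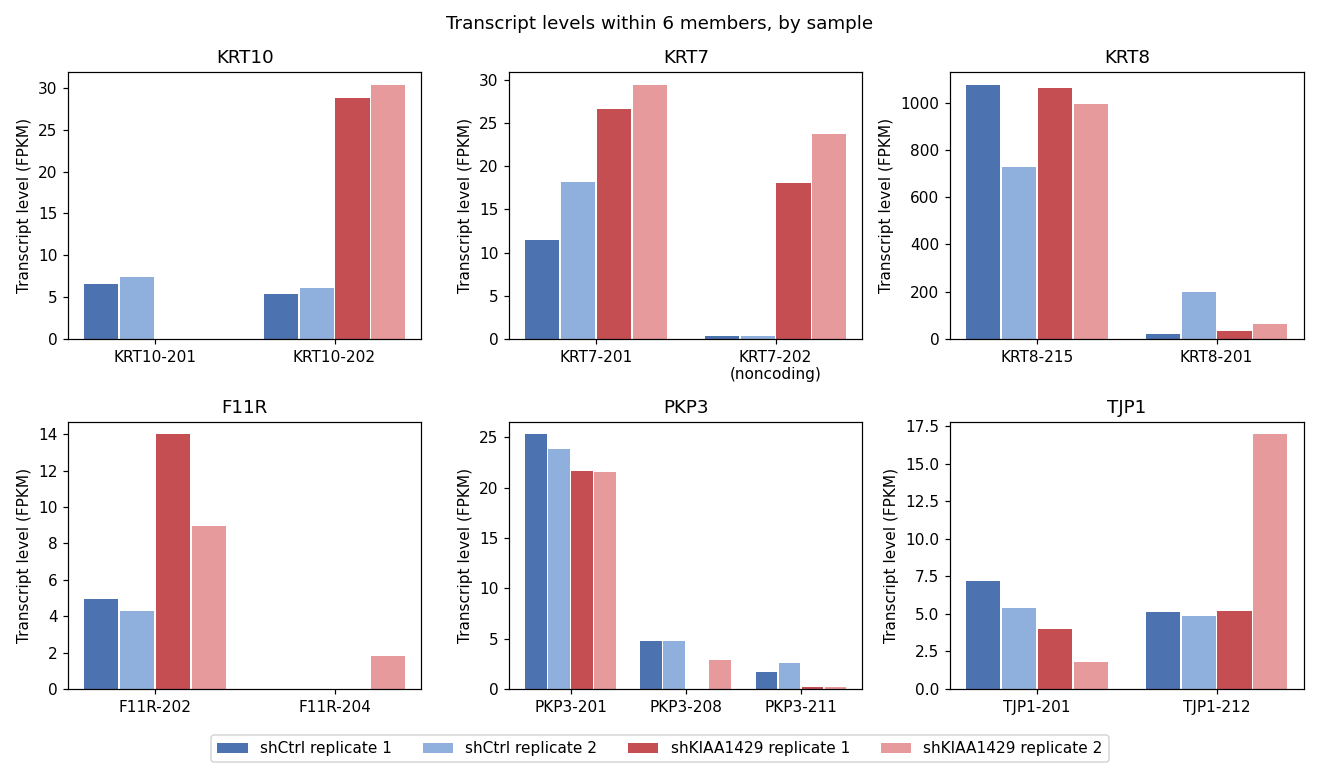
Transcript level in FPKM, with bars per sample from 0 (blue shCtrl, red shKIAA1429), for selected transcripts of KRT10, KRT7, KRT8, F11R, PKP3 and TJP1. KRT10-201 is at or near 0 and the noncoding KRT7-202 is high only in the shKIAA1429 samples, and TJP1-212 is high in shKIAA1429 replicate 2 alone.

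The sequence that m6A is most often found in was counted as a feature the symbols did not use. The motif GGACT, read on the coding strand, was found in the coding sequence of 28 of the 33 members (84.85%) and of 8094 of 11284 genes (71.73%). The median density was 0.846 per kilobase in the members and 0.9565 per kilobase in all genes, whose median coding length was 1272 bases against 1407 for the members. The members whose coding sequence held no match were LCE1F, KRT10, JUP, CLDN1 and CLDN23. A match is a description of sequence and not a methylated site. The untranslated regions were not searched. The paper placed the m6A peaks reduced by the knockdown mostly close to the stop codon and in the untranslated region after it.

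Related gene lists outside the members differed in part. Of 25 other junction and polarity genes tested, 16 were higher and 9 lower in mean log2 level, and 2 had an unadjusted p-value under 0.05, both lower, against 2.82% of all genes in that direction. CGN, cingulin, a tight junction plaque protein, reached 1.75 and 1.69 FPKM in the 2 control samples and 0.609 and 0.705 FPKM in the 2 knockdown samples (limma adjusted p 0.527). PARD6A, a polarity protein, measured 5.60 and 6.36 FPKM in the shCtrl samples, against 3.27 and 2.68 FPKM after knockdown (limma adjusted p 0.527). Both were lower, as was OCLN, while F11R was higher. ELF3, an epithelial transcription factor and 1 of 2 epithelial regulators tested, had 4.47 and 3.26 FPKM in control cells compared with 8.11 and 7.27 FPKM in knockdown cells (limma adjusted p 0.556). KLF5, the other regulator tested, was lower, at 4.95 and 3.42 FPKM in the control samples and 2.87 and 2.54 FPKM in the knockdown samples (limma adjusted p 0.877).

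Of 8 mesenchymal and EMT genes tested, 7 were higher in mean log2 level and 3 of them had an unadjusted p-value under 0.05, against 3.11% of all genes in that direction, with 0 passing the adjusted test. Both shKIAA1429 values lay above both shCtrl values in 5 of the 8, beside 16.6% of all genes. The groups overlapped in TWIST1, ZEB1 and ZEB2. FN1, fibronectin, reached 128.2 and 119.1 FPKM in the 2 control samples and 215.2 and 206.1 FPKM in the 2 knockdown samples, a log2 fold change of 0.76 with a limma adjusted p-value of 0.3504. VIM, vimentin, the intermediate filament protein of mesenchymal cells, measured 758.5 and 763.3 FPKM in the shCtrl samples, against 978.1 and 941.3 FPKM after knockdown. Its log2 fold change of 0.33 lay beside that of KRT19, at 0.36, and its level was near that of KRT18. The third was SNAI2, a repressor of epithelial genes, with a log2 fold change of 0.63 (limma adjusted p 0.840). Of 8 keratin filament partners tested, VIM was the 1 with an unadjusted p-value under 0.05, against 3.11% of all genes in that direction. PLEC, plectin, which links filaments to the cell surface, had a log2 fold change of 0.10.

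**Figure D5:**
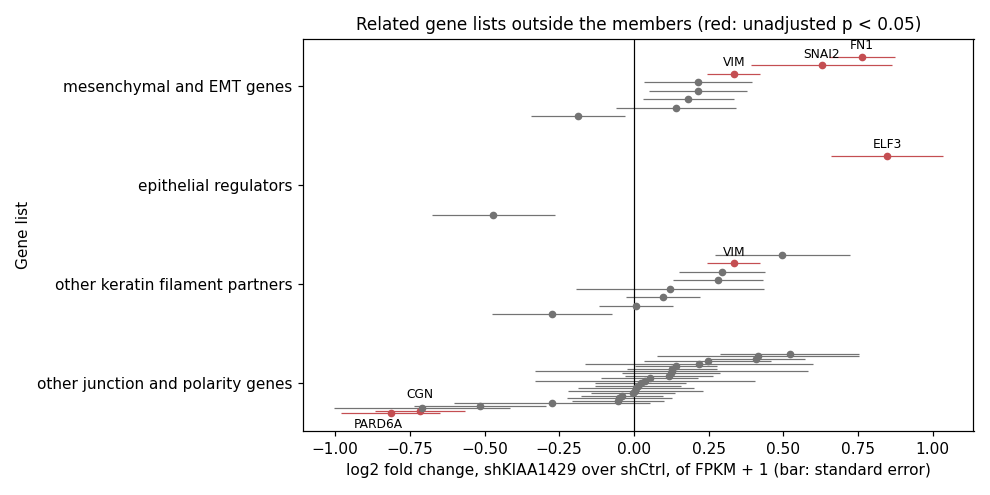
Log2 fold change of FPKM plus 1 (shKIAA1429 over shCtrl) with its standard error for the genes of 4 related lists, red and named where the unadjusted p-value was under 0.05. FN1, SNAI2, VIM and ELF3 lie on the higher side and CGN and PARD6A on the lower side.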

How the data were processed

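Gene expression was measured by RNA-seq in 2 shCtrl and 2 shKIAA1429 samples of HCCLM3 cells. The authors deposited FPKM values per annotated transcript on GRCh37 with GENCODE identifiers. The submitters' processing notes name Bowtie2 2.1.0 and hg19, and the methods name TopHat, HTSeq and DESeq for gene counts, while the tool behind the FPKM is not given in the sources used here. Every one of the 38510 rows reached at least 0.504 FPKM in some sample. Of the rows, 108 had gene symbols turned into dates in part of the tables and were recovered from the others.

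FPKM of protein-coding rows were summed per gene. The test was limma 3.58.1 in R 4.3.3 (two-sided, empirical Bayes with trend, group only) on log2(FPKM + 1), with Benjamini-Hochberg adjustment over all genes, so fold changes of low genes are understated. The study used a count test, which FPKM do not allow. The fit was checked on simulated data. Exons and coding sequences came from GENCODE 44 lifted to GRCh37, which matched 79 of 80 member rows, 48 of them with the same start and end.

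Named genes were fixed keratins, desmosome and junction genes, claudins with a mean FPKM of at least 5, members under the unadjusted threshold, with an absolute log2 fold change over 0.5 or a mean of at least 20, and, from other lists, genes under the same threshold and those a cell type check needed; SOX9, SPP1, FLG, PLEC, KRT86, DSC3 and the other claudins were added after their values were seen. The values of 1 member are not reported here. Members and lists were chosen with earlier results of these data known. LCE1F was among the fixed names because of its value in an earlier analysis. Alternatives were a pseudocount of 0.1, no filter or a filter in every sample, scaling to the same total or by the upper quartile, all rows of a gene, a robust variance, the replicate block and leaving out each replicate. Length-weighted sums, the whole span of KRT10-202 and the annotated lengths of both KRT10 transcripts were added after seeing the data. Plots used Python 3.11.15 with matplotlib 3.10.9.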

Additional observations from a re-analysis of the deposited data

Results flagged for a closer look

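Noncoding rows of the members' loci were not part of the gene sums. In 5 of the 11 both shKIAA1429 values lay above both shCtrl values, which is what singled them out, beside 18.9% of all noncoding rows. Every listed row reached at least 0.504 FPKM in some sample, and KRT7-202, KRT7-211 and F11R-203 did so only in shKIAA1429 samples. Being listed and lying higher in shKIAA1429 were thus not independent for these rows. KRT7-202 had a mean of 20.9 FPKM in shKIAA1429, KRT8-214 of 5.65, KRT7-213 of 1.42, KRT7-211 of 0.905 and F11R-203 of 0.605. In PKP3-207 both values lay below, at 0.537 and 0.526 FPKM against 1.02 and 1.18 FPKM. These rows were not tested one by one against the others, and 3 of the 5 belong to KRT7, whose coding row was higher as well. KRT7-202 shares 165 of its 292 exonic bases with KRT7-201, and the part of shared fragments in its level was not tested.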

How the results depend on the processing

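The count of members past both thresholds was 0 under every alternative run, and that of member transcripts was 0 under each that tested transcripts. The count of all genes was 0 to 1 when each of the 4 replicates was left out, the 1 being HIST4H4 without shCtrl replicate 1, a library that also turned KRT34 to 0.0042. Members with an unadjusted p-value under 0.05 numbered 5 to 6 in those fits against 6, and members whose groups did not overlap numbered 19 to 26 against 15, since an arm then rests on 1 sample that is assumed to vary like the other group. The median of the members ranged from -0.040 to 0.086.

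Scaling to the same total moved the members from 16 higher and 15 lower to 14 and 17 and turned DSP to -0.028 and KRT18 to -0.046, with a median of all genes of -0.0566. Length-weighted sums turned KRT10 to -0.067 and DSP to -0.0040, which for KRT10 follows from counting 583 bases for KRT10-202; with all annotated exonic bases its ratio of means was 2.33. Leaving out a replicate turned further small values: KRT18 ranged from -0.064 to 0.077, KRT8 from -0.035 to 0.17, KRT34 from -0.68 to 0.0042, KRT80 from -0.076 to 0.48, DSG2 from -0.070 to 0.38, DSP from -0.11 to 0.14, EVPL from -0.18 to 0.060, CLDN7 from -0.14 to 0.80 and TJP1 from -0.22 to 0.080. Others kept their sign but moved by over 1.5 times: JUP from -0.29 to -0.019, PKP2 from -0.36 to -0.11, KRT15 from -0.74 to -0.30 and CLDN1 from -1.16 to -0.10.

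The groups share replicate numbers, while the labels name no batch for them, and there are only 2 pairs. With the replicate block 11 members had an unadjusted p-value under 0.05 (10.8% of all genes) and 0 were called; the deviations of same-numbered samples had a correlation of 0.29 over all genes and of 0.58 over the members. Single rows and levels near 1 FPKM are limited by an unknown depth.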
